A study of Brassica napus with 6 samples.

Results

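The 200 genes described here were the most abundant matched genes in young floral buds of control rapeseed (Brassica napus, cultivar Qinyou3), out of 20674 genes to which tabulated assembled transcripts had been matched. They were chosen from the data. The counts of all transcripts matched to one Brassica rapa gene were summed and divided by the total of the count column to give counts per 1e6 tabulated counts (CPM), a scale not corrected for length. The genes were then ranked by their mean CPM over the 3 control libraries. The control levels of these genes are therefore a description and carry no test, while their levels in the treated libraries played no part in the choice. The study compared buds of plants sprayed at bolting with 0.3 mg/L amidosulfuron and buds of plants sprayed with water, with 3 biological replicates in each group. All plants were field-sown, vernalized and moved to a greenhouse. Buds were taken while pollen mother cells were in meiosis. Each library came from whole young buds, so that fewer cells of a type and less RNA per cell cannot be told apart.

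Amidosulfuron is a sulfonylurea herbicide. Sulfonylureas block acetolactate synthase, the enzyme that opens the synthesis of the branched-chain amino acids valine, leucine and isoleucine. The series title calls the compound a male gametocide, an agent that makes plants male sterile by stopping pollen development. A bud at meiosis holds sepals, petals, the ovary and anthers, and in the anthers the tapetum feeds the pollen mother cells. In dividing plant tissue the most abundant messenger RNAs commonly encode ribosomal proteins, elongation factors and histones, and in green or secretory tissue proteins of photosynthesis, the cell wall and lipid transfer. Which of the 200 genes belong to such classes is not given: the tables carry gene identifiers with no symbol, none of the identifiers was in the RefSeq gene table of Brassica napus, and no role is assigned to a gene below. For the same reason the tissue label was not checked against marker genes.

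The tables hold 1942711 to 2867528 counts in the amidosulfuron libraries and 2218787 to 3596321 in the control libraries, which is between 30.1% and 34.1% of the reads behind the deposited RPKM values. The gene ranking therefore covers the 65535 tabulated transcripts only. Transcripts beyond the tables were not analysed here, and the gene sums leave them out. The labels call the cDNA normalized and do not say how; what this step did to the levels of abundant genes was not tested. They call the 3 replicates of a group independent and do not say how many plants each drew on. By median difference over the 200 genes, amidosulfuron 2 was nearer to the control libraries than to amidosulfuron 1 and 3. The differences were 1.14-fold to 1.25-fold against 1.48-fold and 1.38-fold. By correlation this did not hold for control 1, as given below. Results that rest on amidosulfuron 2 are also given without it. All 200 genes passed the filter on low counts, as did 13053 genes in all. Their median count per library lay between 2015 and 3607, and counting error alone would give a coefficient of variation (CV, SD over mean) of about 2% for a gene of that size (median over the genes 2.09% in amidosulfuron and 1.95% in control libraries). Reads carried no molecular identifiers, so this figure covers counting error only.

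Levels within the 200 spanned more than 10-fold in control buds. Mean CPM ran from 84.2 to 7373 in treated buds, with a median of 1003, and from 535 to 6479 in control buds, with a median of 952. In control buds 92 of the genes averaged more than 1000 CPM and 36 more than 2000. The limit of the list was not a gap in abundance. The last genes inside it, Brara.D00785 and Brara.D02644, averaged 537 and 535 CPM in control buds, and the first ones outside it, Brara.C02603 and Brara.F03014, averaged 534 and 534. In treated buds these 4 genes averaged 429, 615, 589 and 611 CPM in the same order.

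The first gene in control buds, Brara.A00091, had 5989, 6050 and 7472 CPM in amidosulfuron 1, 2 and 3, against 5478, 7716 and 6243 CPM in control 1, 2 and 3. The groups overlapped and their means were within 1% of each other (6504 CPM ± 839 in amidosulfuron and 6479 CPM ± 1137 in control buds, SD, n = 3). The second, Brara.C01441, had 3093, 455 and 1515 CPM in treated buds, against 8436, 4450 and 4243 CPM in control buds. Every treated library lay below every control library, and amidosulfuron 2 was the lowest. The third, Brara.I03566, had 7687, 4690 and 7472 CPM in treated buds, against 5584, 4094 and 4539 CPM in control buds. Here amidosulfuron 1 and 3 lay above all controls and amidosulfuron 2 inside their range.

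The gene at rank 4, Brara.I00999, was represented by a single transcript and had 3404, 3897 and 3611 CPM in treated buds, against 5039, 4530 and 4387 CPM in control buds, with no overlap. The fifth, Brara.I02318, had 6207, 4660 and 5898 CPM after amidosulfuron. Its control values of 4350, 4443 and 4391 CPM were the most even of all 200 genes, with a CV of 1.06%. All 3 treated values of Brara.I02318 were above these. The sixth, Brara.E00678, had 2832, 4394 and 3082 CPM in treated and 3523, 4585 and 4761 CPM in control buds, and the groups overlapped. None of these 6 genes passed the group comparison described below; the smallest edgeR adjusted p among them was 0.395, for Brara.C01441.

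**Figure D1:**
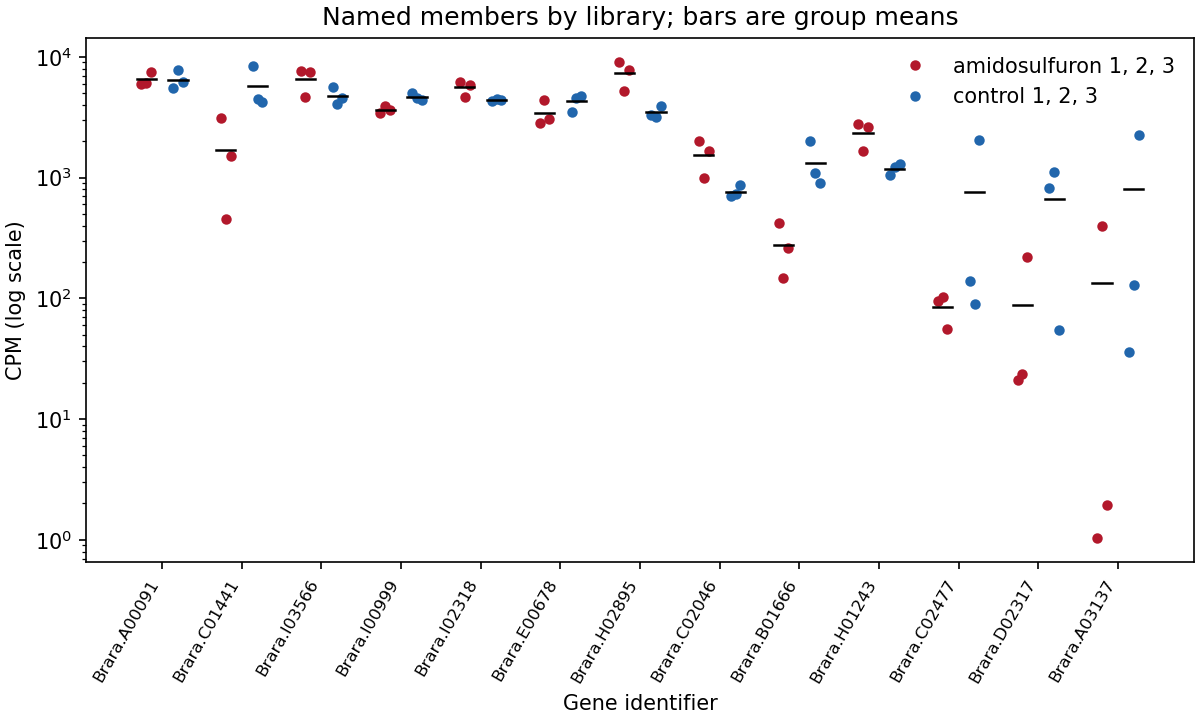
Levels of 13 members in each library (CPM, log axis), with amidosulfuron libraries in red left of the control libraries in blue, replicates 1 to 3 from left to right and bars at the group means. Brara.H02895, Brara.C02046 and Brara.H01243 have all 3 treated values above the controls, Brara.B01666 all below, and the high control means of Brara.C02477 and Brara.A03137 come from control 3.

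Together the 200 genes, 0.967% of the matched genes, took at least 25.6% of the tabulated counts in each library. Their share was 29.3%, 26.4% and 29.3% in amidosulfuron 1, 2 and 3, and 27.7%, 25.6% and 27.6% in control 1, 2 and 3. The means were 28.3% ± 1.66 in treated and 27.0% ± 1.15 in control buds (SD, n = 3), a difference of 1.36 percentage points that is about the size of the SD within the groups. In the upper part of the list differences were again about the size of the SD, but reversed for the first 10 genes. The 100 most abundant genes held 21.4% ± 1.48 of the counts in treated and 19.9% ± 0.729 in control buds. The first 10 held 4.26% ± 0.178 in treated and 4.54% ± 0.324 in control buds. The tabulated part of the libraries also held 7 transcripts with no gene match that were above the level of the gene at rank 200 in control buds; they were outside the ranking.

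Because the list was drawn from the controls, the same measure was also taken from the 200 highest genes of each library itself. These held 31.0%, 27.3% and 30.7% of the counts in amidosulfuron 1, 2 and 3, and 28.1%, 26.0% and 28.0% in control 1, 2 and 3. The means of 29.6% ± 2.04 in treated and 27.4% ± 1.17 in control buds were not separated by exact permutation of the libraries (two-sided p = 0.3, n = 3 each, where 0.1 is the smallest p that this design allows). Amidosulfuron 2 lay inside the range of the controls, and the other two treated libraries lay above it.

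**Figure D2:**
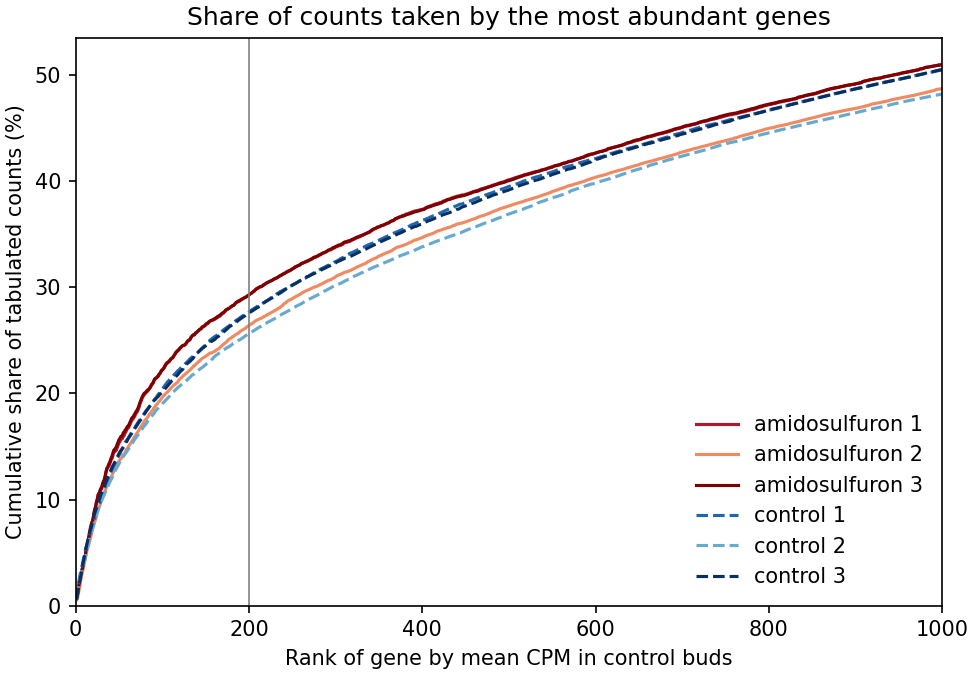
Cumulative share of tabulated counts (%) against the rank of genes by mean CPM in control buds, for ranks 1 to 1000; solid lines are amidosulfuron libraries, dashed lines control libraries, and the vertical line marks rank 200. Amidosulfuron 1 and 3 run on top of each other and reach 29.3% at rank 200, while amidosulfuron 2 (26.4%) lies among the controls (25.6% to 27.7%).

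The list of abundant genes was largely shared by the groups. Of the 200, 165 (82.5%) were also among the 200 genes with the highest mean CPM in treated buds. The 35 that were not came, with the exception of Brara.B01666, from the lower 100 of the list, and 22 of them still ranked within the first 300 of treated buds. The exceptions at the far end were Brara.C02477, Brara.D02317 and Brara.A03137, at treated ranks 2262, 2161 and 1388. Of the genes that took the places in the treated list, 24 of 35 ranked within the first 300 of control buds. Counted library by library, 124 of the 200 genes were within the 200 highest of all 6 libraries, 130 in all 3 treated and 152 in all 3 control libraries. Since the controls defined the list, the higher number for control libraries follows from the rule.

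The spread between replicates was wide for many of the 200 genes. The median CV over replicates was 21.7% in amidosulfuron (quartiles 14.6% and 28.8%) and 16.0% in control libraries (quartiles 10.8% and 26.9%). The treated CV was the higher one for 128 of the 200 genes. In the next 200 genes by control rank the medians were 18.9% in treated and 17.6% in control libraries, and in the 600 genes after those they were 17.0% in treated and 17.5% in control libraries. The wider spread of the treated libraries was thus larger among the most abundant genes than further down, as a description without a test. It rested on amidosulfuron 2: without that library the treated median CV was 8.61%, and without amidosulfuron 1 or 3 it was 22.8% or 27.3%. Highest and lowest replicate differed by more than 2-fold for 34 of the 200 genes in treated and for 24 in control libraries. Among the next 200 genes the counts were 34 in treated and 29 in control libraries, so the treated count was the same there.

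The extremes of spread show how unlike the members were. The most even gene of the treated libraries was Brara.G03394, with 1091, 1102 and 1115 CPM after amidosulfuron (CV 1.07%), against 1001, 1123 and 1255 CPM in control buds. The least even gene in both groups was Brara.A03137, with 1.03, 396 and 1.94 CPM in amidosulfuron 1, 2 and 3, against 35.8, 129 and 2241 CPM in control 1, 2 and 3. Its place on the list came from control 3 alone, and amidosulfuron 2 was the treated library in which it was found at more than 2 CPM. All 3 libraries of control buds held it above amidosulfuron 1 and 3, and control 1 and 2 held it below amidosulfuron 2.

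The entry of some genes on the list thus depended on 1 library. Ranked by the median in place of the mean of the 3 controls, 13 of the 200 genes would have been outside the first 200. The lowest of them by median was Brara.A03137 at rank 1406. Another was Brara.C02477 at rank 1283, with 138, 89.7 and 2032 CPM in control 1, 2 and 3 and 94.2, 102 and 55.8 CPM in the treated libraries. Its mean was 84.2 CPM ± 24.9 in treated and 753 CPM ± 1108 in control buds (SD, n = 3), and the groups overlapped because control 2 fell among the treated values.

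**Figure D3:**
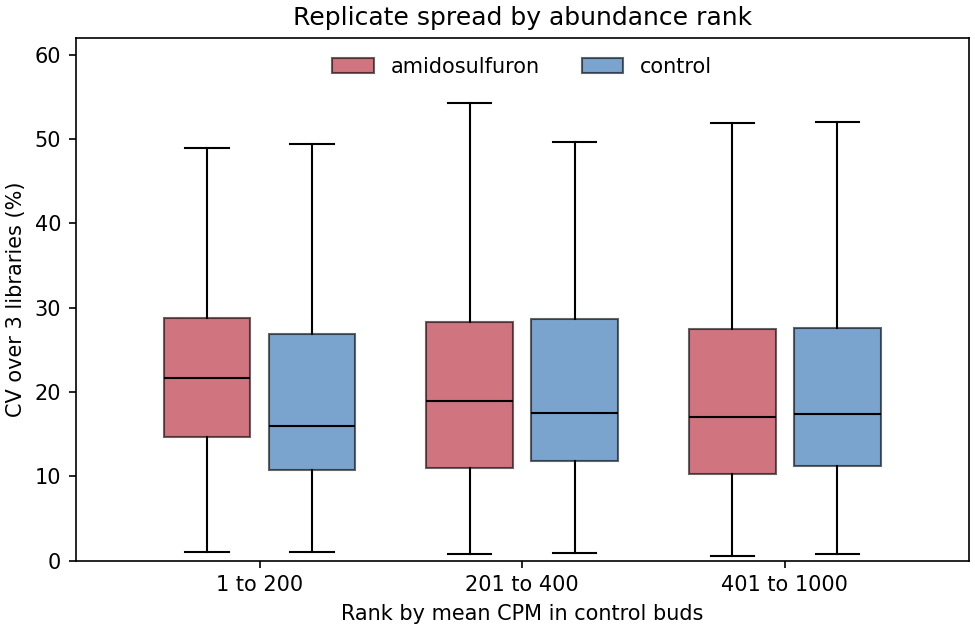
CV over the 3 replicates of a group (%, boxes from the lower to the upper quartile with the median as a line, whiskers to the farthest gene within 1.5 box lengths, genes beyond them not drawn) for amidosulfuron in red and control in blue, by rank of control abundance; 1 gene at 0 in all treated libraries has no CV and is left out. The median is 21.7% in amidosulfuron and 16.0% in control libraries for ranks 1 to 200, and it is 17.0% and 17.5% for the 600 genes on the right.

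The group comparison called none of the 200 genes. Counts summed per gene were compared with edgeR's quasi-likelihood test over all 13053 genes, and p-values were adjusted by Benjamini-Hochberg and called under 0.05. No abundant gene was called higher and none lower in amidosulfuron, where 0.123% of all genes were called higher and 0.023% lower; the smallest edgeR adjusted p among the 200 was 0.174. At an unadjusted p under 0.05, 26 of the 200 (13.0%) were higher and 16 (8.0%) lower, beside 5.82% and 5.2% of all genes. DESeq2 on the same counts called 3 of the 200 higher and 1 lower at an adjusted p under 0.05, where it called 0.896% and 0.628% of all genes. It gave no adjusted p for Brara.C02477 and Brara.A03137. Because the list was chosen on control levels, genes whose controls happened to be high are favoured and the contrast leans towards lower treated values; nothing is read from these counts about the list as such.

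A gene that missed the threshold is not shown to be unchanged. The standard error of the fitted log2 change had a median of 0.28 over the 200 genes, against 0.33 over all genes, and the 95% interval reached a median of 0.63 to either side. For 93 of the 200 genes the interval lay wholly within a 2-fold change in either direction. For 2 genes, Brara.B01666 and Brara.C02477, it lay wholly beyond a 1.5-fold decrease. The decrease of Brara.C02477 rested on control 3: its log2 change was −3.10 with all libraries and −0.42 without control 3.

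The median log2 change of the 200 was 0.02 (quartiles −0.29 and 0.44), beside a median of −0.01 over all 13053 genes (quartiles −0.31 and 0.28). Of the 200, 144 (72.0%) were within 1.5-fold of no change, beside 78.5% of all genes tested and 79.0% of the next 200 by rank. Among the 200, 3 were higher in amidosulfuron by at least 2-fold and 8 were lower by at least 2-fold, where 2.57% and 4.74% of all genes reached such changes. The median moved with rank: in successive blocks of 50 genes from the top it was 0.20, 0.16, −0.01 and −0.03. It also depended on the way the list was drawn. The 200 highest genes over all 6 libraries, a choice that treats the groups alike, had a median of 0.20, and the 200 highest of the treated libraries had 0.30.

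**Figure D4:**
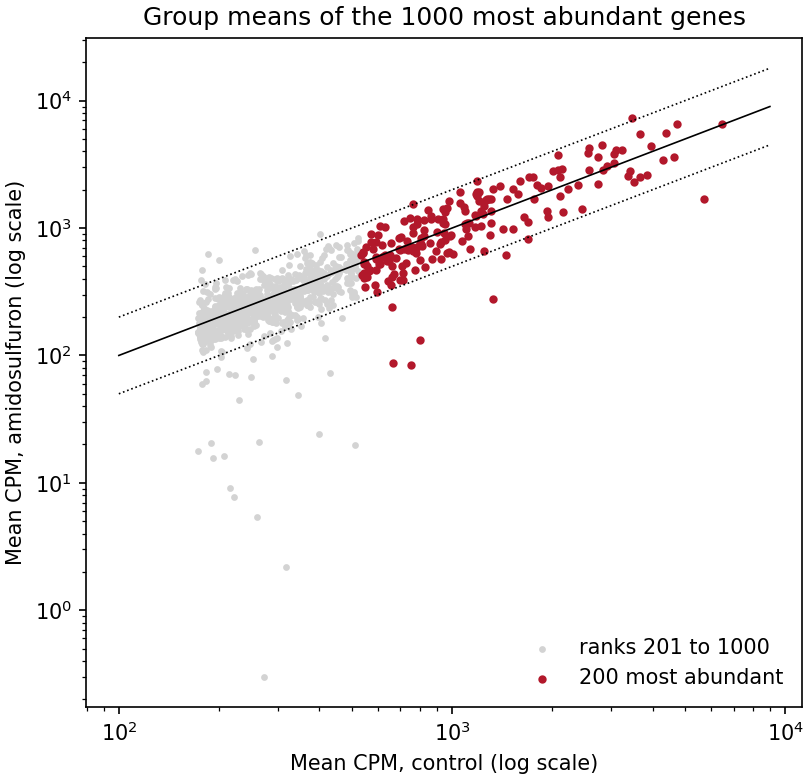
Mean CPM in amidosulfuron against mean CPM in control buds (log axes) for the 200 most abundant genes in red and the genes that follow them up to rank 1000 in grey; the solid line marks equal means, the dotted lines a 2-fold difference, and 1 grey gene at 0 in treated buds is drawn at 0.3 CPM. Most red points lie between the dotted lines, and those far below, down to 84.2 CPM, lie further from the solid line than any red point above it.

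The largest positive fitted change was that of Brara.H02895, which was matched by 7 transcripts and had the highest mean CPM of all genes in treated buds. It had 9145, 5260 and 7715 CPM in amidosulfuron 1, 2 and 3, against 3299, 3202 and 3906 CPM in control 1, 2 and 3. The lowest treated library thus lay above the highest control, and the ratio of the means (7373 CPM ± 1965 over 3469 CPM ± 382, SD, n = 3) was 2.13. Its log2 change was 1.15 with a standard error of 0.30 (edgeR adjusted p = 0.26). Each of its 7 transcripts had a higher mean in treated than in control buds. The main one, comp56939_c0_seq7, had 5925, 3323 and 5401 CPM in treated buds, against 2013, 2000 and 2315 CPM in control buds.

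Brara.C02046, a gene with a single transcript of 1190 bp, was next. It had 1999, 999 and 1657 CPM in treated buds, against 699, 725 and 870 CPM in control buds (log2 change 1.09 ± 0.31 SE, edgeR adjusted p = 0.31). Brara.H01243 followed, with 2778, 1652 and 2645 CPM in treated buds, against 1060, 1217 and 1293 CPM in control buds (log2 change 1.05 ± 0.28 SE, edgeR adjusted p = 0.279). In these 3 genes the treated libraries lay in one order, with amidosulfuron 1 highest and amidosulfuron 2 lowest. They are the 3 that DESeq2 called higher, with adjusted p-values of 0.00891, 0.0412 and 0.0234. Brara.H01243 was singled out after its values were seen, since DESeq2 called it.

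The 2 largest negative fitted changes rested on control libraries that disagreed. Brara.C02477 (log2 change −3.10 ± 1.05 SE, edgeR adjusted p = 0.376) was high in control 3 only, as given above. Brara.D02317 had 21.2, 23.7 and 218 CPM in treated buds, against 827, 1111 and 54.2 CPM in control buds. Control 3 lay below amidosulfuron 3, and the log2 change of −2.86 had a standard error of 1.15 (edgeR adjusted p = 0.421). One transcript, comp56700_c0_seq1, carried most of it, with a mean of 72.1 CPM in treated and 646 CPM in control buds.

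The smallest p among the 200 belonged to Brara.B01666, which was singled out after its values were seen, since DESeq2 called it. It had 420, 146 and 259 CPM in amidosulfuron 1, 2 and 3, against 1998, 1089 and 906 CPM in control 1, 2 and 3. The groups were separate, with every treated value below 500 CPM and every control above 900. The control mean was 4.84 times the treated mean (275 CPM ± 138 in treated and 1331 CPM ± 585 in control buds, SD, n = 3), and the log2 change was −2.22 ± 0.48 SE (edgeR adjusted p = 0.174). DESeq2 called it lower (adjusted p 5.76e-05). With the replicate number as a block edgeR called it as well (adjusted p = 0.038). All 3 of its transcripts, which come from 2 components of the assembly, had lower means in treated buds: 112, 111 and 51.6 CPM against 507, 511 and 314 CPM in control buds. Of these, comp49575_c0_seq2 and comp51810_c0_seq1, had nearly equal values in every library, and the sources used here do not say how reads with several matches were divided between such transcripts.

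Complete separation of the groups was found for 46 of the 200 genes. All 3 treated values lay above all 3 control values for 24 of them (12%), where 7.24% of all genes tested showed this, and below them for 22 (11.0%), where 8.62% did. With library sizes scaled by TMM factors the counts were 16 and 20, beside 7.82% and 7.25% of all genes. The 24 genes had fitted changes from 1.23-fold to 2.22-fold upwards, and the 22 from 1.08-fold to 4.65-fold downwards. The 24 held 7.01%, 4.56% and 6.56% of the counts in amidosulfuron 1, 2 and 3, against 3.74%, 3.75% and 3.98% in control 1, 2 and 3. Their direction follows from how they were picked. Amidosulfuron 2 was the lowest treated library for 23 of the 24, where it was the lowest for 101 and the highest for 72 of all 200 genes. For the 22 it was the lowest in 6 and the highest in 8, and their summed share was 1.83%, 1.75% and 1.74% of the counts in treated and 3.63%, 2.74% and 2.71% in control libraries. The median of the longest transcript was 846 bp for the 24, 924 bp for the 22 and 951 bp for the other 154 genes.

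The treated libraries differed among themselves over the abundant genes. Between amidosulfuron 1 and 3 the median gene differed by 1.13-fold in either direction. Between amidosulfuron 2 and these libraries it differed by 1.48-fold and 1.38-fold, while amidosulfuron 2 and control 3 differed by 1.14-fold. Control libraries differed from each other by 1.17-fold to 1.24-fold, and from amidosulfuron 1 and 3 by 1.42-fold to 1.48-fold. Among the next 200 genes amidosulfuron 1 and 3 differed by 1.11-fold, and amidosulfuron 2 and control 3 by 1.13-fold, so the likeness of these libraries was not particular to the most abundant genes. Amidosulfuron 2 differed there from control 1 by 1.37-fold, more than from amidosulfuron 1 (1.35-fold) or amidosulfuron 3 (1.32-fold). Pearson correlations of log2(CPM + 1) over the 200 genes, given as a description because genes share libraries and are no replicates, were 0.943 between amidosulfuron 1 and 3 and 0.828 between amidosulfuron 2 and control 3. They were 0.685 to 0.846 among the controls. Amidosulfuron 2 correlated at 0.737 with amidosulfuron 1 and 0.739 with amidosulfuron 3, against 0.694 with control 1 and 0.744 with control 2.

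The position of each treated library against the 3 controls shows the same difference gene by gene. Amidosulfuron 1 lay above all 3 controls for 78 of the 200 genes (39%), within their range for 48 and below them for 74 (37%). Amidosulfuron 3 lay above for 82 (41%), within for 52 and below for 66 (33%). Amidosulfuron 2 lay above for 48 (24%), within for 112 and below for 40 (20%). The shares of all genes tested in amidosulfuron 1, 2 and 3 were 21.2%, 27.8% and 22.0% above the controls. Below them they were 34.9%, 21.1% and 30.4%. In the next 200 by rank they were 25%, 22% and 27% above, and 45.5%, 30.5% and 43.5% below. Over all genes tested, the shares within the control range were 43.8% in amidosulfuron 1, 51.1% in amidosulfuron 2 and 47.6% in amidosulfuron 3. Among the 200 they were 24.0%, 56.0% and 26.0%. In the next 200 by rank they were 29.5%, 47.5% and 29.5%, in the same order. The low shares of amidosulfuron 1 and 3 within the control range were thus not particular to the 200. The highest of the 6 values lay in amidosulfuron 1, 2 and 3 for 50, 22 and 34 genes (25%, 11% and 17%), beside 12.9%, 19.0% and 12% of all genes tested. It lay in control 1, 2 and 3 for 45, 20 and 29 genes (22.5%, 10.0% and 14.5%), beside 20.0%, 21.3% and 14.8%. These shares carry no test.

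**Figure D5:**
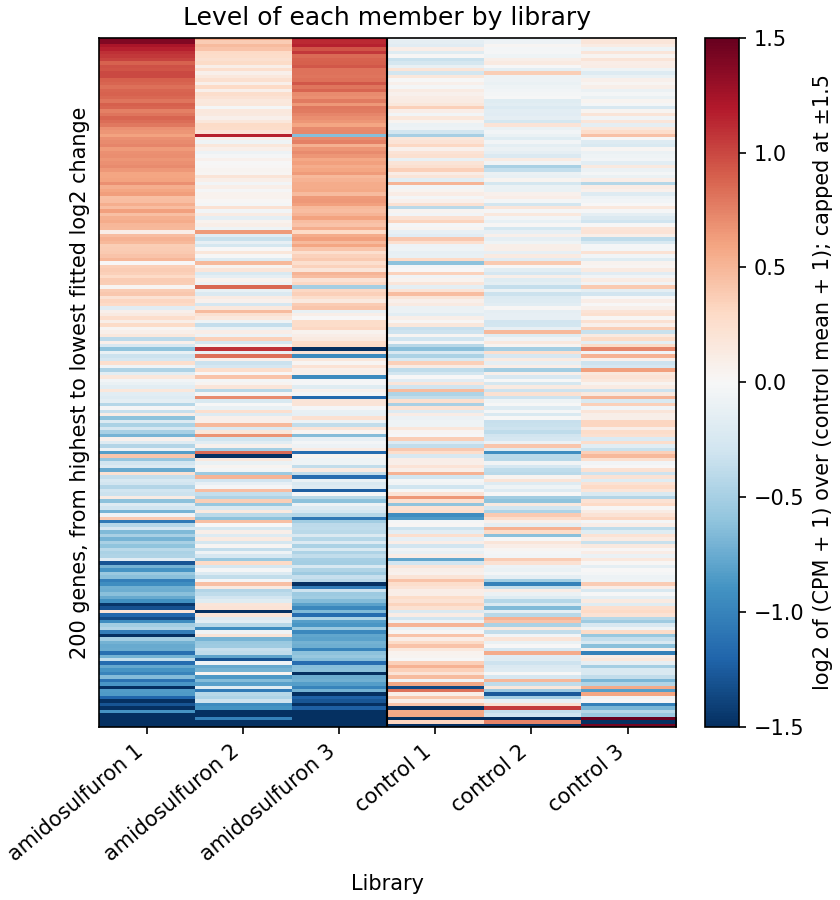
Level of each of the 200 genes in each library as log2 of (CPM + 1) over (mean control CPM + 1), with genes from the highest to the lowest fitted change downwards, treated libraries left of the line, control libraries right of it, and colours capped at 1.5. The columns of amidosulfuron 1 and 3 share their red upper and blue lower parts, and the column of amidosulfuron 2 is paler through most of both.

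Amidosulfuron 2 and control 3, the most alike pair across the groups, were both above the other 4 for 23 of the 200 genes (11.5%, beside 13.6% of all genes) and both below them for 12 (6.0%, beside 7.38%). What these libraries share was not tested. Results were therefore also taken without them. Both libraries were singled out from these same data for their likeness across the groups. Leaving them out favours a wider contrast, so the calls and counts below are no independent support for a change. Without amidosulfuron 2 alone, edgeR called 10 of the 200 genes higher and 1, Brara.G00960, lower, where 1.2% and 0.13% of all genes were called. The 10 included Brara.H02895, Brara.C02046 and Brara.H01243, with log2 changes of 1.38, 1.36 and 1.29. Without both libraries 4 of the 200 were called higher, the same 3 genes and Brara.C00820, and 2 lower, Brara.A03137 and Brara.K01727, where 0.682% and 0.261% of all genes were called. The sign of the change in Brara.A03137 hung on control 3: its log2 change was −2.61 ± 1.87 SE with all libraries (edgeR adjusted p = 0.653) and 0.69 without control 3 alone (edgeR adjusted p = 0.889), within a range of −8.90 to 0.69 over the fits that left out one library. With 2 libraries per group the fit has few degrees of freedom, and Brara.A03137 was then compared between 1.03 and 1.94 CPM in treated and 35.8 and 129 CPM in control buds. Groups of 2 overlap less often than groups of 3: 80 of the 200 genes were higher and 59 lower without overlap in the 4 libraries left, beside 19.5% and 28.9% of all genes.

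The 200 genes were matched by 751 of the 45722 matched transcripts. The median was 3 transcripts per gene, against 2 over all matched genes and 2 in the next 200 by rank. A single transcript was matched to 22.5% of the 200, against 45.7% of all other matched genes. Among the next 200 by rank the share was 23.5%, close to that of the 200. The summing over transcripts in the ranking favours genes with many, so this number is not independent of the rule. Transcripts of more than 1 assembly component, the unit in which the assembler groups related transcripts, were matched to 55.5% of the 200, beside 52.0% of the next 200. The gene with the most transcripts, Brara.D00785, had 21 in 2 components, of which the leading one held 16.0% of the counts of the gene on average.

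Within a gene the leading transcript mostly stayed the same. Of the 155 genes with several transcripts, 122 (78.7%) had 1 and the same leading transcript in all 6 libraries, beside 74.5% of such genes among the next 200. Its share of the counts of the gene had a median of 50.1%. By group sums, 13 genes had different leaders in treated and control buds, in most of them transcripts with close shares. The widest shift, singled out after the values were seen, was in Brara.D01826. Its transcript comp47954_c0_seq5 held 10.6% ± 5.29 of the counts of the gene in treated and 24.7% ± 3.32 in control buds, and comp50471_c0_seq2 held 33.6% ± 5.50 in treated and 21.9% ± 4.83 in control buds (SD, n = 3). The treated and control ranges did not overlap for either transcript. This shift was not tested.

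Counts of the abundant genes were shared out more often than those of other genes. Of the control values above 0, 7.81% were whole numbers among transcripts of the 200 genes, against 35.0% among the other matched transcripts. A value that is not whole contains reads divided between transcripts, and larger counts have more chances to contain one. When the transcripts of a gene were summed, the total was whole in all 3 controls, within 0.001 counts, for 15 of the 200 genes. The other genes therefore shared reads with transcripts matched to other genes or to none, and their levels are uncertain to that extent.

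Ranking per length kept most of the list. With RPKM summed over transcripts in place of CPM, 160 of the 200 genes stayed among the 200 highest of control buds. The 40 that left were long (median of the longest transcript 1429 bp), and the genes that replaced them short (521 bp). The 200 genes as a whole had a median longest transcript of 931 bp (301 to 3489 bp), against 1029 bp over all genes tested and 1102 bp in the next 200 genes. On the RPKM scale the 200 genes had a median level of 447 in treated and 425 in control buds. Across the 200 genes, the Spearman correlation of the log2 change with the length of the longest transcript was −0.24, beside −0.01 over all genes tested; it describes these genes, which share the same libraries, and carries no p.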

How the data were processed

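Single-end 36 nt reads from 3 amidosulfuron and 3 control libraries (Digital Gene Expression kit, total RNA) were mapped to transcripts of an earlier assembly (Bowtie2 2.1.0, at most 1 mismatch) by the authors, and these were matched to Brassica rapa FPsc 1.3 genes, per the series' design text. The deposited tables give estimated counts, not normalized, and RPKM values, which the authors normalized to transcript length and mapped reads. Lengths were recovered from counts over RPKM of the control tables (100% whole, tolerance 0.05 bp). Rows without a gene match (6.81% to 8.59% of counts) stayed in library totals but not in the ranking.

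Counts were summed per gene and rounded. Genes with an upper quartile under 10 counts were left out, which left 13053. The test was edgeR 4.0.16 in R 4.3.3 (TMM factors on column totals, glmQLFit and glmQLFTest, group as the only term; common biological CV 31.8%), with Benjamini-Hochberg adjustment over all genes. Standard errors are the log2 change over the square root of F. The test was also run on simulated counts with known changes. These were drawn independently for each library, so that run does not cover the likeness of amidosulfuron 2 and control 3. Tried besides were limma-voom (limma 3.58.1), DESeq2 1.42.0, other scalings, filters and rankings, the replicate block and left-out libraries. Exact tests used scipy 1.17.1, figures matplotlib 3.10.9. Named were the 6 highest genes, the 2 largest fitted changes in each direction, the genes at the limit of the list, the extremes of CV and the gene with the most transcripts. Brara.B01666 and Brara.H01243 were added after their values were seen, because DESeq2 called them. The genes and lists were chosen with earlier results of these data known. The marker lists were not used, since identifiers have no symbols.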

Additional observations from a re-analysis of the deposited data

How the results depend on the processing

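The calls (0 higher and 0 lower of the 200) became 3 and 1 with DESeq2, 4 and 2 without control 3 and amidosulfuron 2, and 0 and 1 with the replicate number as a block. Leaving out one library gave 0 to 10 higher and 0 to 1 lower. The 200 highest of the treated libraries held 1 higher. RLE factors, column totals, other filters, limma-voom, single transcripts and the other rankings gave 0 and 0. The labels do not say that equal numbers pair the libraries, and libraries of equal number deviated from their groups with correlations of 0.15, −0.13 and −0.43 over all genes tested. The median log2 change (0.02) was 0.20 for the 200 highest over all libraries, 0.30 for those of treated libraries and 0.18 for the 100 highest, and −0.02 to 0.11 without one library. The share of counts in treated and control buds (28.3% and 27.0%) was 30.6% and 29.3% of matched counts, 21.4% and 19.9% for 100 genes, 39.3% and 38.5% for 500, 30.8% and 29.0% of RPKM, and 27.8% to 29.3% and 26.7% to 27.7% without one library. The median CV (21.7% in treated and 16.0% in control libraries) was 8.61% to 27.3% in treated libraries without one of them. It was 11.5% to 14.8% in control libraries without one of them. With TMM sizes it was 24.4% in treated and 18.0% in control libraries. The overlap with the treated list (165) was 83 of 100 for the 100 highest, and 152 to 169 without one library. The leading transcript was the same for 167 genes, among them the 45 with a single transcript, and for 168 to 177 without 1 library. Leaving out a library can only keep or raise this number. Without control 3 and amidosulfuron 2, 80 genes were higher and 59 lower without overlap. For 15 named genes, 12 of 210 alternative fits newly passed the threshold and 7 changed sign, none of these past it. Brara.B01666 and Brara.H01243 are among the 15 because DESeq2 called them. Their DESeq2 fits are counted in the 12 and passed by that choice, so the tally is no independent measure. DESeq2 gave no adjusted p for Brara.C02477 and Brara.A03137, and those fits count as not passing. Without one library the log2 change of Brara.A03137 (−2.61) was −8.90 to 0.69, positive without control 3. That of Brara.A00091 (0.063) was −0.061 to 0.18, negative without amidosulfuron 3 or control 1. That of Brara.G03394 (0.021) was −0.029 to 0.098, negative without amidosulfuron 1, control 1 or control 2, and −0.031 with column totals. The causes were not tested. Separation without those libraries and the ranking by median were chosen after the data were examined.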
